A study of Mus musculus with 8 samples.

Results

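The axoneme, the microtubule core of the sperm flagellum, is built from doublet microtubules, and each doublet has a complete A tubule and an incomplete B tubule joined to it. Proteins bound to the inner wall of these tubules, the microtubule inner proteins, stabilise the doublet against the bending of the beating tail. Tektins are coiled-coil proteins that run as filaments along the lumen of the A tubule, and mice that lack single tektins have sperm with poor motility. Measurements are given here for 9 genes: the tektin genes Tekt1, Tekt2, Tekt3, Tekt4 and Tekt5, and 4 genes of other inner proteins, Efhc2, Pierce1, Pierce2 and Spaca9. They were taken by name from the table, which holds 17127 genes, and all 9 were present and passed the minimum level used for testing.

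RNA-seq was done on whole adult testes of wild-type mice (genotype WT) and of mice with the genotype Iqch-/-, called Iqch mutants here. Iqch encodes an IQ motif protein that the study found in cells of the seminiferous tubules and in Leydig cells. According to the methods of the study the males were 4 months old, the mutants were homozygous for a short frameshift deletion made with CRISPR-Cas9 in B6CBAF1 (C57BL/6xCBA) zygotes, and neither group has a treatment in the labels. The labels do not say which of the 2 edited lines a mutant came from. A coverage plot in the study names its mutant RNA-seq data as Iqch^mu7, which is 1 of these lines. Each library came from 1 testis sample, and 7 of the 8 listed samples were analysed, wild type 1 to 4 and mutants 1, 2 and 4. The study set aside 1 of its mutants as an outlier. Mutant 3 was not analysed here.

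Values are CPM, the reads of a gene per 1000000 counted reads of its library. In each library they rise in equal steps. If a step stands for 1 read, the libraries held 32859673 to 37551057 reads of these genes in the wild type and 32064384 to 34806129 in the mutants. Iqch itself had 207.8 ± 11.3 CPM (SD, n = 4) in the wild type. In the mutants it had 67.26 ± 2.252 CPM (SD, n = 3), a change of -1.63 on the log2 scale and of -1.76 after scaling. Testes of the mutants also differed in cell composition markers: all 10 elongating spermatid markers examined were called lower, with sums of 24840 to 26220 CPM in the wild type against 16020 to 18340 CPM in the mutants, and 7 of 8 Leydig cell markers were called higher. In a bulk sample, fewer cells of a type and less RNA per cell cannot be told apart. The median log2 fold change over all 17126 tested genes was 0.12 on the CPM as deposited and -0.01 after division by median-of-ratios size factors, so fold changes of the 9 genes are given under both scalings. Over all genes the calls divided into 6212 higher and 2428 lower on the deposited CPM and into 4627 higher and 4294 lower after scaling.

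The windows around the RefSeq transcription starts of the 9 genes were searched on both strands for short runs of letters. These were GTTGCC, called the RFX motif here, and TGACGT, the core of the cAMP response element. Only these exact letters were matched, so other forms of an RFX site were not counted. RFX factors are known regulators of cilia genes, and factors of the CREB family act in spermatids. Entries were found for all 9 genes, 7 by symbol and Pierce1 and Pierce2 by the sequence at their annotated start, in 12 windows of 300 bases. The RFX motif occurred in windows of 5 of the 9 genes (Tekt1, Tekt2, Tekt4, Pierce2 and Spaca9), compared with 14.1% of the 27025 genes in the RefSeq table and 12.5% of its windows. Tekt1 and Tekt2 each held it 2 times in a window (for Tekt2 the same 2 copies lie in 2 overlapping windows), which was the case in 1.02% of all windows. In Tekt1 the copies began 35 bases (opposite strand) and 15 bases (same strand) before the start, and in Tekt2 they began 96 bases (same strand) and 22 bases (opposite strand) before it. The copy in Spaca9 began 104 bases before the start (same strand). Those in Tekt4 and Pierce2 lay after the start, at base 9 (opposite strand) and base 15 (same strand) of the transcript. The cAMP response element core was found in windows of 1 gene, Tekt1, compared with 8.37% of all genes. A match is a run of letters and not a bound site, and no factor binding was measured in these samples.

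The sequences of 4 windows with the RFX motif are shown so that the places of the copies can be compared. Each has 250 bases before the start and the first 20 bases of the transcript, 5′ to 3′ on the strand of the gene. Capitals mark the RFX motif (GTTGCC or GGCAAC) and, in Tekt1 only, also the cAMP response element core 148 bases before the start. The sequences are those of RefSeq for GRCm38.p6, and each matched the GRCm39 chromosome exactly at 1 place. The GRCm39 positions are chr11:72252689-72252958 (minus strand) for Tekt1, chr4:126219462-126219731 (minus strand) for Tekt2, chr17:25690314-25690583 (plus strand) for Tekt4 and chr2:28589644-28589913 (minus strand) for Spaca9. The Tekt2 start coincides with the end of its GENCODE gene span, and the other 3 starts lie inside the spans, so these genes also have annotated starts further upstream.
Tekt1: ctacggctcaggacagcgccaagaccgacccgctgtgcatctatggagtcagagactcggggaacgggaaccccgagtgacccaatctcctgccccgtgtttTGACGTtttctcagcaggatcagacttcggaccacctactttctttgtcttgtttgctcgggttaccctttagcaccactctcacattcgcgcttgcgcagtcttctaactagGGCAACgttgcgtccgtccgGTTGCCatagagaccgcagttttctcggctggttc
Tekt2: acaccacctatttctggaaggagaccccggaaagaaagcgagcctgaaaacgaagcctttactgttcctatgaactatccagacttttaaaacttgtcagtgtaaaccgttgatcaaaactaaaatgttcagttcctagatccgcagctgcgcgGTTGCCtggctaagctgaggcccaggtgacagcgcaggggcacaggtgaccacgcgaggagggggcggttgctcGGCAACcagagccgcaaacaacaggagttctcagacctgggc
Tekt4: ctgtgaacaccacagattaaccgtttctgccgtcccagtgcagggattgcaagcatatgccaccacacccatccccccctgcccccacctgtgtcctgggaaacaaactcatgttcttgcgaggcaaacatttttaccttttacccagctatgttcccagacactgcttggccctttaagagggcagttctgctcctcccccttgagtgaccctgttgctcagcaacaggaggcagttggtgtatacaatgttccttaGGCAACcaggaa
Spaca9: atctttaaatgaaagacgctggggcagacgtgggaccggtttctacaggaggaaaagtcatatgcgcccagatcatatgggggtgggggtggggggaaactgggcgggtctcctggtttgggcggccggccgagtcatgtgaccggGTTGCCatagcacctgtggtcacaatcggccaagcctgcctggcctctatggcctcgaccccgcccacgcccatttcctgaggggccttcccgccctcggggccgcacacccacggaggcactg

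Of the 9 genes, 4 were called lower in Iqch mutant testes at a limma FDR below 0.01 (Tekt1, Tekt4, Tekt5 and Spaca9) and 0 were called higher. Over all tested genes 50.4% were called, with 14.2% called lower and 36.3% called higher. After scaling by size factors 7 of the 9 were called lower, where 25.1% of all genes were, and Efhc2 and Pierce1 were the exceptions. Every mutant library lay below every wild-type library for 5 of the 9 genes, compared with 19.5% of all tested genes. The median log2 fold change of the 9 genes was -0.18, or -0.30 relative to the median of all genes. The log2 fold changes of the 9 ran from -0.40 to 0.04 on the deposited CPM and from -0.54 to -0.10 after scaling.

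**Figure D1:**
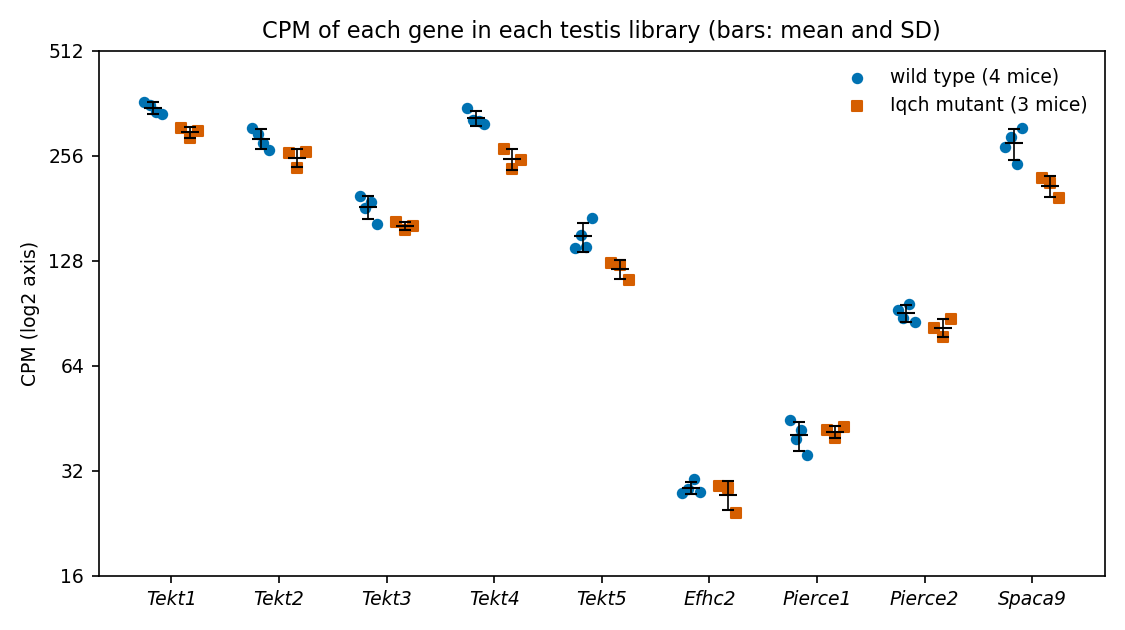
CPM (log2 axis) of the 9 genes in each of the 4 wild-type (circles) and 3 Iqch mutant libraries (squares), with the mean and SD of each group as bars. The groups do not overlap for Tekt1, Tekt2, Tekt4, Tekt5 and Spaca9, and they overlap for Tekt3, Efhc2, Pierce1 and Pierce2.

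Levels of different genes were compared per kilobase of exon. In wild-type testes Tekt1 stood at 187.2 ± 7.436 CPM per kilobase and Spaca9 at 186.8 ± 18.86 CPM per kilobase (SD, n = 4), and their ranges over libraries overlapped. Tekt2 followed at 144.2 ± 9.532 CPM per kilobase, below both and above Tekt3 in every wild-type library. In mutant 4 Tekt2 lay just above Spaca9 (131.9 against 130.1 CPM per kilobase). Tekt3 at 104.4, Tekt4 at 90.98 and Tekt5 at 83.11 CPM per kilobase had overlapping ranges. Within single libraries Tekt3 was above Tekt4 in all 7, while Tekt5 was above Tekt3 in wild type 4 and above Tekt4 in wild type 4 and mutant 2, and below them in the other libraries. Lower levels were found for Pierce2 (33.27 CPM per kilobase), Pierce1 (14.93) and Efhc2 (10.72), each of which was separate from its neighbours in every wild-type library. The order of the means was the same in the mutant libraries. It depended on the length taken for a gene. With the length of the canonical transcript in place of all annotated exons, 2 of the 9 genes (Pierce1 and Efhc2) kept their rank, Spaca9 was the highest at 389.3 CPM per kilobase and Tekt4 rose to 209.8 CPM per kilobase, beside Tekt1 at 212.8.

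Tekt1 (ENSMUSG00000020799), chromosome 11 from 72235545 to 72253268, minus strand, in GRCm39, encodes a core tektin of the A tubule. It was at 366.1, 358.5, 341.3 and 336.7 CPM in wild type 1 to 4 and at 306.8, 287.2 and 302.4 CPM in mutants 1, 2 and 4. The lowest wild-type library lay above the highest mutant library. Its level fell to 85.21% of the wild-type mean (log2 fold change -0.23, standard error 0.04, limma FDR 0.00048), and the change was -0.37 after scaling. A two-sided exact permutation test, with 35 possible arrangements, gave p = 0.02857, the smallest value that 3 against 4 libraries allow. With the smaller tail doubled, the smallest is 0.05714.

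Tekt2 (ENSMUSG00000028845, chromosome 4 from 126215914 to 126219481) encodes a partner of Tekt1 in the tektin filament, and its loss in mice impairs sperm motility. It was at 308.2, 295.1, 277.7 and 265.3 CPM in wild type 1 to 4 and at 261.1, 235.7 and 262.1 CPM in mutants 1, 2 and 4. The groups were separated by a narrow gap between wild type 4 and mutant 4. The difference was not called (log2 fold change -0.18, standard error 0.06, limma FDR 0.014). It was called after scaling by size factors (-0.31, limma FDR 0.00056) and without wild type 4 (-0.22, limma FDR 0.00395).

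Tekt3 (ENSMUSG00000042189, chromosome 11 from 62952480 to 62985790, plus strand) encodes a tektin whose loss lowers the progressive motility of mouse sperm. Its values were 196.3, 181.5, 188.8 and 163.2 CPM in the wild type and 165.1, 156.9 and 161.4 CPM in the mutants. Wild type 4 lay inside the mutant range, and the other wild-type libraries lay above it. The difference was not called (log2 fold change -0.18, standard error 0.06, limma FDR 0.017). As for Tekt2, it was called after scaling (-0.31, limma FDR 0.00059) and without wild type 4 (-0.23, limma FDR 0.000769).

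Tekt4 (ENSMUSG00000024175, chromosome 17 from 25673515 to 25695576, plus strand) encodes a tektin whose loss lowers the motility of mouse sperm. It was at 350.0, 324.8, 321.3 and 314.7 CPM in wild type 1 to 4 and at 267.7, 234.2 and 249.2 CPM in mutants 1, 2 and 4. The gap between the groups was larger than the range within either. Its log2 fold change was -0.39 (standard error 0.05, limma FDR 3.1e-05, exact p = 0.02857), which left 76.4% of the wild-type mean, and it was -0.52 after scaling. Leaving out any 1 library gave changes of -0.44 to -0.34.

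Tekt5 (ENSMUSG00000039179, chromosome 16 from 10175812 to 10213354) encodes a tektin known from the sperm flagellum. The wild-type values were 139.2, 152.1, 139.9 and 169.6 CPM and the mutant values 125.8, 124.4 and 112.7 CPM. Here wild type 4 was the highest library, where it was the lowest for Tekt1 to Tekt4. The log2 fold change was -0.31 (standard error 0.07, limma FDR 0.0016, exact p = 0.02857) and -0.44 after scaling. Without mutant 4 the change was -0.26 and was not called (limma FDR 0.0104).

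Spaca9 (ENSMUSG00000026809, chromosome 2 from 28582088 to 28590532, minus strand) encodes a small protein of the tubule lumen that was first described in the sperm acrosome. It was at 270.8, 290.4, 242.0 and 307.2 CPM in wild type 1 to 4 and at 221.0, 213.8 and 193.4 CPM in mutants 1, 2 and 4. All mutant libraries lay below the wild type, whose own spread was the widest of the 9 genes (SD 10.1% of the mean). At 75.43% of the wild-type mean (log2 fold change -0.40, standard error 0.07, limma FDR 0.00036, exact p = 0.05714) it had the largest change of the 9, and 7.135% of all tested genes had a lower value. After scaling its change was -0.54. The change of Tekt4 differed from it by less than the standard error of either.

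Pierce1 and Pierce2 encode proteins that reach through the tubule wall and connect the lumen with the outer dynein arms. Pierce1 (ENSMUSG00000026831, chromosome 2 from 28344166 to 28356528) was at 44.64, 39.44, 41.88 and 35.6 CPM in the wild type and at 41.8, 39.58 and 42.63 CPM in the mutants. The mutant values fell within the wild-type range, and no difference was called (log2 fold change 0.04, standard error 0.07, limma FDR 0.67). The estimate was -0.10 after scaling and -0.02 without wild type 4. Pierce2 (ENSMUSG00000086158, chromosome 9 from 72886777 to 72892679) was at 92.45, 87.67, 96.23 and 85.27 CPM in the wild type and at 81.82, 77.38 and 87.02 CPM in the mutants. Mutant 4 overlapped with wild type 4, and the difference (log2 fold change -0.14, standard error 0.06, limma FDR 0.045) was called after scaling (-0.27, limma FDR 0.0011) and under no other alternative. Efhc2 (ENSMUSG00000025038, X chromosome from 16998278 to 17186211) encodes an EF-hand protein of the doublet lumen. Its wild-type values were 27.67, 28.43, 30.25 and 27.86 CPM and its mutant values 28.87, 28.63 and 24.23 CPM, with mutant 4 alone below the wild type. The difference (log2 fold change -0.07, standard error 0.07, limma FDR 0.41) was called under neither scaling, at -0.21 after scaling, and was 0.01 without mutant 4.

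All of these genes but Tekt3 overlap a gene annotated on the opposite strand. The shared exon length was 483 bases for Tekt2, 345 for Pierce1, 264 for Tekt4, 107 for Tekt1, 59 for Tekt5, 26 for Efhc2 and 6 for Pierce2, and 0 for Spaca9. Reads from such stretches could not be assigned by strand with the information at hand.

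**Figure D2:**
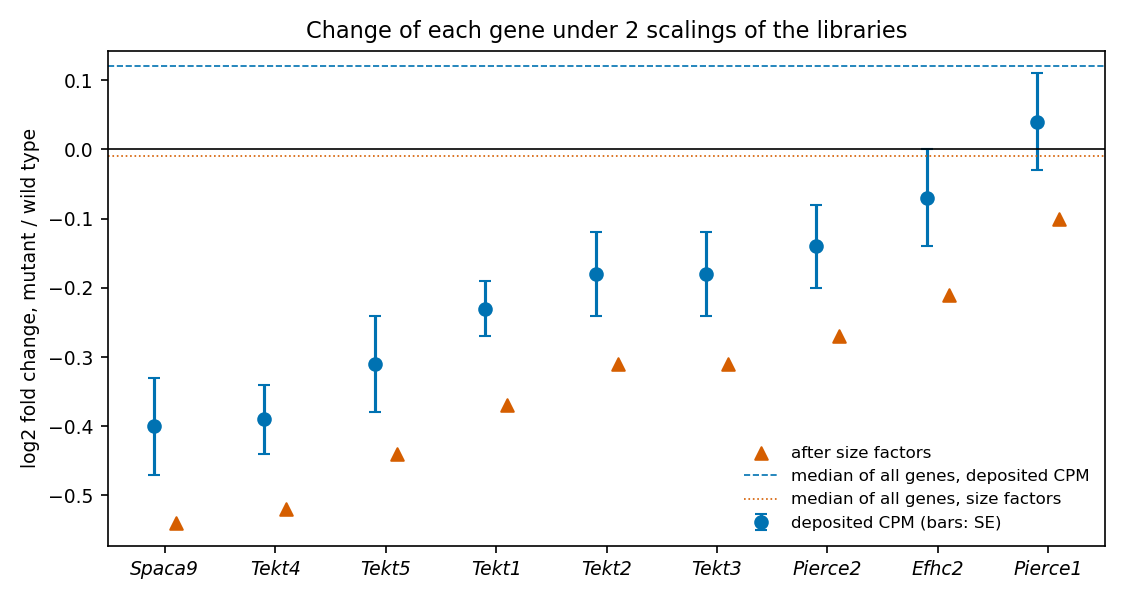
Log2 fold change of each gene (mutant over wild type) from limma on the deposited CPM (circles, with standard errors) and after scaling by size factors (triangles), with the median of all tested genes under each scaling as horizontal lines. Spaca9 and Tekt4 lie lowest, at -0.40 and -0.39 on the deposited CPM, and Pierce1 lies highest, at 0.04 on the deposited CPM and at -0.10 after scaling.

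Differences between the genes themselves do not depend on the scaling of libraries when each is taken against the mean log2 level of the 9 genes in the same library. By this measure Tekt4 lay 1.17 to 1.24 above that mean in wild-type libraries and 0.95 to 1.05 above it in mutants, a difference of -0.18 (standard error 0.04). Pierce1 moved the other way, from between -1.97 and -1.72 to between -1.62 and -1.52, a difference of 0.24 (standard error 0.06). For the other 7 genes the relative levels of the groups overlapped, with differences from -0.20 for Spaca9 to 0.14 for Efhc2. Tekt1, Tekt2 and Tekt3 kept within 0.03 of their wild-type position. These are descriptions, since the genes were chosen with results of these data known.

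The wild-type libraries differed among themselves. Wild type 4, the library with the most reads if 1 step is 1 read, was the lowest of the 4 wild-type libraries for 6 of the 9 genes (Tekt1 to Tekt4, Pierce1 and Pierce2), compared with 25.6% of all tested genes, and the highest for Tekt5 and Spaca9. Among other inner microtubule proteins it was the lowest for 21 of 45 and the highest for 15. It was the highest for 30.7% of all tested genes. Among spermatocyte markers it was the lowest library for 5 of 8, among round spermatid markers for 2 of 8 and among elongating spermatid markers for 2 of 10. The part of these markers or of depth in the values was not tested.

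The other known inner proteins of doublet microtubules were examined as a list of 47 genes, of which 45 were in the table and Tektip1 and Cimip2b were not. Of these, 27 were called lower and 1 was called higher, with a median log2 fold change of -0.25, or -0.37 relative to the median of all genes. Over all tested genes 14.2% were called lower and 36.3% higher. After scaling 41 of the 45 were called lower and 0 higher, beside 25.1% and 27% of all genes. Their levels summed to between 7374 and 7565 CPM in the wild type and between 6125 and 6378 CPM in the mutants, 84.23% of the wild-type mean. For the sum of the 9 genes that share was 83.26%.

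The largest decreases among the 45 were those of Spmip8, Spmip1, Spmip6, Cimip3, Spmip4 and Cfap97d1. Spmip8, one of the sperm-specific inner proteins, averaged 99.08 ± 4.862 CPM (SD, n = 4) in the wild type and 64.69 ± 4.254 CPM (SD, n = 3) in the mutants, and changed by -0.62 (standard error 0.06, limma FDR 1.1e-06). Spmip1, at a low level of 13.26 ± 1.357 CPM in the wild type, changed by -0.59 (standard error 0.10, limma FDR 0.00016). Spmip6, also known as a manchette protein of spermatids, changed by -0.49 (standard error 0.05, limma FDR 3.3e-06). Cimip3 at -0.43, Spmip4 at -0.43 and Cfap97d1 at -0.42 followed. After scaling the changes of these 6 ran from -0.75 for Spmip8 to -0.55 for Cfap97d1. All 6 had every mutant library below every wild-type library, compared with 19.5% of all tested genes. Since they were picked as the largest called decreases, such a separation adds little.

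Spmip2 alone was called higher, with 125.7 ± 4.142 CPM (SD, n = 4) against 149.0 ± 10.83 CPM (SD, n = 3) in the mutants (0.24, standard error 0.05, limma FDR 0.0014), and it was not called after scaling (0.11, limma FDR 0.114). With the length of all annotated exons, the highest wild-type levels were those of Cimip4 (279.5 CPM per kilobase), Cfap206 (262.4), Spmip9 (195.5), Spmip6 (189.4) and Cimip2a (186.8), a range that includes Tekt1 and Spaca9. With the canonical transcript the highest were Cimip4 (385.5 CPM per kilobase), Spmip6 (302.5), Cfap206 (295.5), Cfap276 (231.2) and Spmip9 (198.5). Cimip4 changed by -0.28, Spmip9 by -0.41 and Cimip2a by -0.41, all called lower. Cfap206, which the list holds although its protein is known from the base of the radial spokes and not from the lumen, changed by -0.14 (limma FDR 0.0087) and was called in the full set and without wild type 4, but not without any 1 of the other 6 libraries (limma FDR 0.0157 to 0.0323) or with the replicate number as a block (limma FDR 0.0349).

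Grouped by name, after the values were seen, 9 of the 11 Spmip genes (sperm microtubule inner proteins) were called lower, with a median of -0.41. Of the 15 Cfap genes (cilia and flagella associated proteins) 7 were called lower, with a median of -0.20. All 5 Cimip genes (ciliary microtubule inner proteins) were called lower, with a median of -0.28. Of the 14 genes with other names 6 were called lower, with a median of -0.19. Of all tested genes 14.2% were called lower. After scaling 10 of the Spmip, 13 of the Cfap, 5 of the Cimip and 13 of the other genes were called lower, beside 25.1% of all genes. The difference between these groups was not tested.

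**Figure D3:**
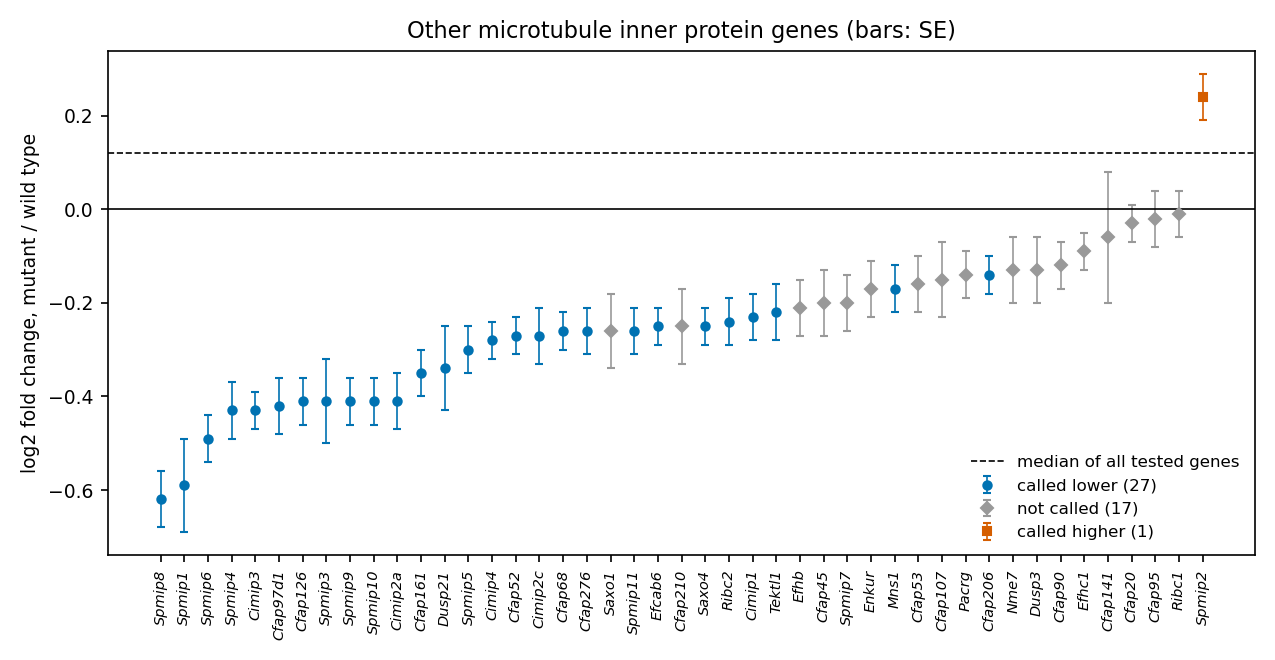
Log2 fold change (mutant over wild type, with standard errors) of the 45 other microtubule inner protein genes, ordered by size. 27 genes called lower are drawn as circles, 17 not called as diamonds and Spmip2, called higher, as a square, and the dashed line is the median of all tested genes at 0.12.

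Markers of germ cell stages were set beside the 9 genes. Round spermatid markers had a median log2 fold change of -0.21, with 5 of 8 called lower and sums of 1311 to 1399 CPM in the wild type against 1149 to 1220 CPM in the mutants. Elongating spermatid markers had a median of -0.61 with 10 of 10 called lower. Spermatocyte markers had a median of -0.05 with 1 of 8 called lower, a share near that of all tested genes (14.2%). Their sums were 1249 to 1310 CPM in the wild type against 1152 to 1248 CPM in the mutants. After scaling 8 round spermatid, 10 elongating spermatid and 4 spermatocyte markers were called lower, beside 25.1% of all genes. The mean log2 level of the 9 genes, taken against that of the round spermatid markers in the same library, lay between -0.07 and 0.00 in the wild type and between -0.11 and -0.02 in the mutants, so the groups overlapped. Against the elongating spermatid markers it rose from between -3.44 and -3.38 to between -3.10 and -3.01, with no overlap. Against the spermatocyte markers it lay between 0.46 and 0.59 in the wild type and between 0.34 and 0.55 in the mutants.

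Of the somatic markers, all 7 measured Sertoli cell markers, 7 of 8 Leydig cell markers and 6 of 6 macrophage markers were called higher, compared with 36.3% of all tested genes. Sertoli cell markers summed to 987.4 to 1072 CPM in the wild type against 2079 to 2210 CPM in the mutants. Of 7 spermatogonium markers 4 were called higher, and of 4 peritubular myoid cell markers 1 was, a share below that of all genes. After scaling, which left 27% of all genes called higher, 5 Sertoli cell markers and 1 spermatogonium marker were called higher, the Leydig cell and macrophage counts were the same, and the median of the myoid markers went from 0.06 to -0.07. The share of the 9 genes' change that goes with these shifts was not tested. Several of the 9 genes are also used by ciliated epithelium, such as that of the efferent ducts. Of 6 markers of multiciliated cells, Mcidas, Sntn, Cdhr3, Tmem212 and Gmnc were not among the genes of the table, and Ccno was at 2.37 to 3.962 CPM over all libraries.

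**Figure D4:**
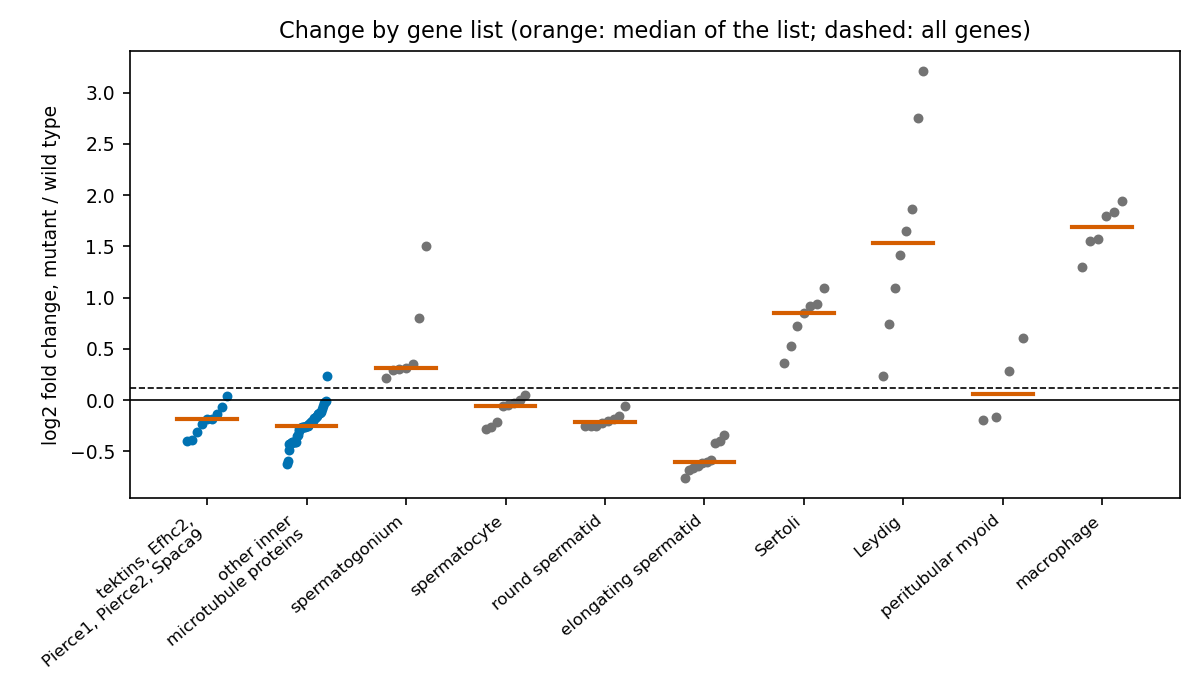
Log2 fold changes (mutant over wild type, deposited CPM) of single genes (points) in the 9 tektin and inner protein genes, the 45 other inner protein genes and the marker lists of testis cell types, with list medians in orange and the median of all tested genes as a dashed line. The 9 genes have a median of -0.18, close to round spermatid markers at -0.21, between spermatocyte markers at -0.05 and elongating spermatid markers at -0.61.

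Genes with the profile most like that of 2 of the 9 genes were sought among the 11170 other genes with a mean of at least 10 CPM, by the Euclidean distance over the 7 libraries of log2 values relative to the wild-type mean. Closest to Tekt1, the gene with the highest wild-type level per kilobase, were Mcm7 (distance 0.036, log2 fold change -0.22), Saxo4 (0.048, -0.25) and Psmc3 (0.049, -0.23), where the median distance of all genes was 0.639. Mcm7 is a subunit of the replicative helicase, Saxo4 is in the list of inner proteins and Psmc3 is a proteasome ATPase. Closest to Spaca9, the gene with the largest change, were H1f9 (0.059, -0.40), Prss55 (0.075, -0.39) and Spata25 (0.090, -0.43). H1f9 is a linker histone of spermatids and Prss55 a serine protease of the testis. With 2 groups of few libraries such distances are a description only.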

How the data were processed

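The libraries came from whole adult testes, 4 wild-type and 3 mutant. The authors used Trimmomatic for trimming, Subread for alignment to GRCm39 and featureCounts for counting, removed genes with few reads and deposited CPM values, which sum to the same total in each library over the 17127 genes. The strand setting and the annotation release are not given in the sources used here. Columns were tied to samples by the descriptions in the labels. Within 0.1 of a step, 100% of the values in each library lay on a regular grid, and 1 step was 0.0266 to 0.0312 CPM. The depth is exact only if that step is 1 read. Count-based tests were not run.

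The test was the moderated linear model of limma 3.58.1 (R 4.3.3) with an intensity trend, fitted to log2(CPM + 0.1) of the 17126 genes that reached 2.2 CPM in at least 2 libraries of either group. Benjamini-Hochberg adjustment ran over all of these, and genes with an FDR below 0.01 are described as called. Fold changes on this scale understate changes of genes with low values. Single genes were also compared with a two-sided exact permutation test (35 arrangements). An adjustment over the 9 genes alone was planned and is not given, since they were chosen with results known. The study describes testes of separate males, 1 per library. The fit was also run on simulated data with equal numbers of known rises and falls, or with none. That setting cannot test how the scaling of libraries acts on the calls. Overlap of exons, lengths and coordinates came from GENCODE M39 (GRCm39), in which 17045 genes (99.5%) were found, and promoter windows from RefSeq (GRCm38.p6). Python 3.11.15, pandas 2.3.3, NumPy 2.4.6, SciPy 1.17.1 and matplotlib 3.10.9 were used.

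The 9 genes were given by name, and the gene lists, tests and thresholds were chosen with earlier results of these data known. Of the other inner proteins, the 5 with the highest wild-type level per kilobase and up to 6 called genes with the largest change in each direction are named. Alternatives changed the scaling (median-of-ratios size factors), the pseudocount (1 or 0.01), the minimum (none or 5 CPM), the pairing (replicate number as a block), the set of libraries (leaving out 1 at a time) and, for levels, the length of a gene. Wild-type and mutant libraries were made with the same kit, and no batch is given in the labels.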

Additional observations from a re-analysis of the deposited data

Results flagged for a closer look

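Cimip3, which encodes a ciliary microtubule inner protein, had 1 wild-type library apart from the rest. Wild type 2 was at 158.5 CPM and the other wild-type libraries at 147.9 to 149.5 CPM, so the gap to the nearest was 0.848 of the whole range, above the 95% critical value of Dixon's test for 4 samples. The mutant libraries were at 110.6 to 114.8 CPM, below all of these. Of the 21 genes looked at in this way 1 passed this value, and chance gives about 1 in 20 groups.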

How the results depend on the processing

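With median-of-ratios size factors 7 genes of the 9 were called, all 7 lower, instead of 4, and the other inner proteins called lower went from 27 to 41, while over all genes 4294 were called lower instead of 2428. Under this scaling Pierce1 changed by -0.10 instead of 0.04. Leaving out 1 library at a time, Pierce1 ran from -0.02 (without wild type 4) to 0.09 and Efhc2 from -0.11 to 0.01 (without mutant 4). Over the same fits the genes called among the 9 numbered 3 to 6, the other inner proteins called 22 to 33 and all genes called 7237 to 8503. The change of Iqch stayed between -1.66 and -1.60. With the canonical transcript as the length of a gene, 2 of the 9 genes kept their place in the order of levels, since the annotated exons of several genes are longer than that transcript. Of 117 values of the 9 genes under 13 alternatives, 108 kept direction and call, 5 gained the call, 1 lost it and 3 changed sign.

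The replicate numbers did not pair the samples: the deviations of same-numbered libraries correlated across genes at 0.0261, 0.00942 and -0.098, and 1 of the 3 mutants correlated best with its own number. With the replicate number as a block 4 of the 9 genes were called (Iqch changed by -1.61), and 26 of the other inner proteins. Over all 17126 tested genes 7722 were called in that fit. The block changed the call of none of the 9. The planned count-based tests were not run, since too few low values were present to establish whole reads. Depth limited none of the 9 genes, which lay at 24.23 CPM or more in every library, far above 3 reads (at most 0.0936 CPM).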

Other observations

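Genes that overlap the 9 genes on the opposite strand were measured in 3 cases. Ak8, an adenylate kinase of flagella that overlaps Spaca9 in its gene body with 0 shared exon bases, averaged 258.1 CPM in the wild type and 220.8 CPM in the mutants (log2 fold change -0.22, limma FDR 0.0001923). Ppp1r26 shares 345 exon bases with Pierce1 and rose from 24.16 to 31.21 CPM (0.37, limma FDR 0.0003626), while Pierce1 was not called. Ccpg1 shares 6 exon bases with Pierce2 and was at 6.203 and 6.411 CPM (0.04, limma FDR 0.7503). The part of shared reads in the value of Pierce1 was not tested.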
